A study of Mus musculus with 18 samples.

Results

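Carcinoma taken at 20 weeks was compared with high grade dysplasia (HGD) taken at 8 weeks under active inflammation, in the mouse colorectum after azoxymethane (AOM), a carcinogen, and dextran sulphate sodium (DSS), a polymer that injures the colonic epithelium. The members are the 3 carcinoma arrays and the 3 HGD arrays at 8 weeks, chosen by their titles, 6 of the 18 arrays of the study, and they were set against each other across 12877 genes. The carcinomas were collected on day 140, which is 86 days after the last DSS. The HGD tissue was collected on day 56, 2 days after the last DSS. Both groups came from male mice of the outbred ICR stock, aged 6 weeks at the start, that received AOM at 10 mg/kg on day 1 and 3 cycles of DSS in the drinking water (2% on days 8 to 14, then 1.5% on days 29 to 33 and on days 50 to 54). Further groups of 3 arrays each give background levels. HGD of day 42 came from mice with the same AOM dose and the earlier pair of DSS cycles. Normal mucosa of day 14 came from mice given saline and plain water. Inflamed mucosa of day 14, used below for globin, came from mice given AOM at 10 mg/kg. It was collected on the day the 2% DSS ended. Tissue was graded under the microscope. Grade, time since DSS and age of the mouse differ together between carcinoma and HGD at 8 weeks and cannot be told apart.

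Colonic crypts renew their lining from Wnt-dependent stem cells at the base, whose daughters divide and then mature into absorptive colonocytes, mucus-secreting goblet cells and hormone-secreting enteroendocrine cells. Mature cells carry ion exchangers, carbonic anhydrases and enzymes that oxidise fatty acids or conjugate foreign compounds. DSS strips this lining, which brings bleeding, neutrophils and macrophages, and regrowth, while mutations after AOM typically keep Wnt signalling on in the tumours. Each array measured RNA of whole tissue, so fewer cells of a type and less RNA per cell cannot be told apart.

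Values are summary signals per probe set, taken to log2 after adding 16, so a gene without signal reads close to 4 and differences of dim genes are understated. Replicates are labelled as biological. Signals ran from 3.39 to 24945 and the 18 arrays had closely similar medians. The 6 arrays were alike in RNA quality by the array's own control probe sets, with log2 ratios of 3' to 5' signal of -0.02 to 0.15 for Gapdh and 0.43 to 0.69 for Actb. All 6 carried the epithelial markers, with Epcam, a cell adhesion molecule of epithelium, at 12.86 to 13.26 in carcinoma and 12.69 to 13.17 in HGD.

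The 3 HGD arrays at 8 weeks differed more among themselves than the carcinoma arrays did. Over all genes tested, carcinoma arrays correlated with each other at r = 0.959 to 0.980, and HGD replicates 1 and 2 at 0.859. HGD replicate 3 correlated with the carcinoma arrays at 0.955 to 0.981, and with the other arrays of its own group at 0.942 and 0.949. The median SD over genes was 0.142 log2 units in carcinoma and 0.206 in HGD, and the SD was larger in HGD for 8784 genes (68.2%). An SD above 1 was found for 108 genes in carcinoma and 569 in HGD. HGD replicate 1 had Wnt target genes at the level of normal mucosa: the mean log2 value of 20 Wnt target genes was 8.49, 9.43 and 9.13 on the carcinoma arrays, against 7.10, 10.30 and 9.76 on the HGD arrays and 7.21, 7.15 and 7.14 in normal mucosa. Of the 6 arrays it also had the highest mean over 15 neutrophil genes, with list means of 6.65, 8.06 and 7.30 in carcinoma, against 8.83, 6.84 and 7.90 in HGD. HGD replicate 2 was at the other end of both lists, with the highest Wnt target level and a neutrophil level inside the carcinoma range. Results below are therefore given with the range found when each array in turn was left out, where that range changes what they show.

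**Figure D1:**
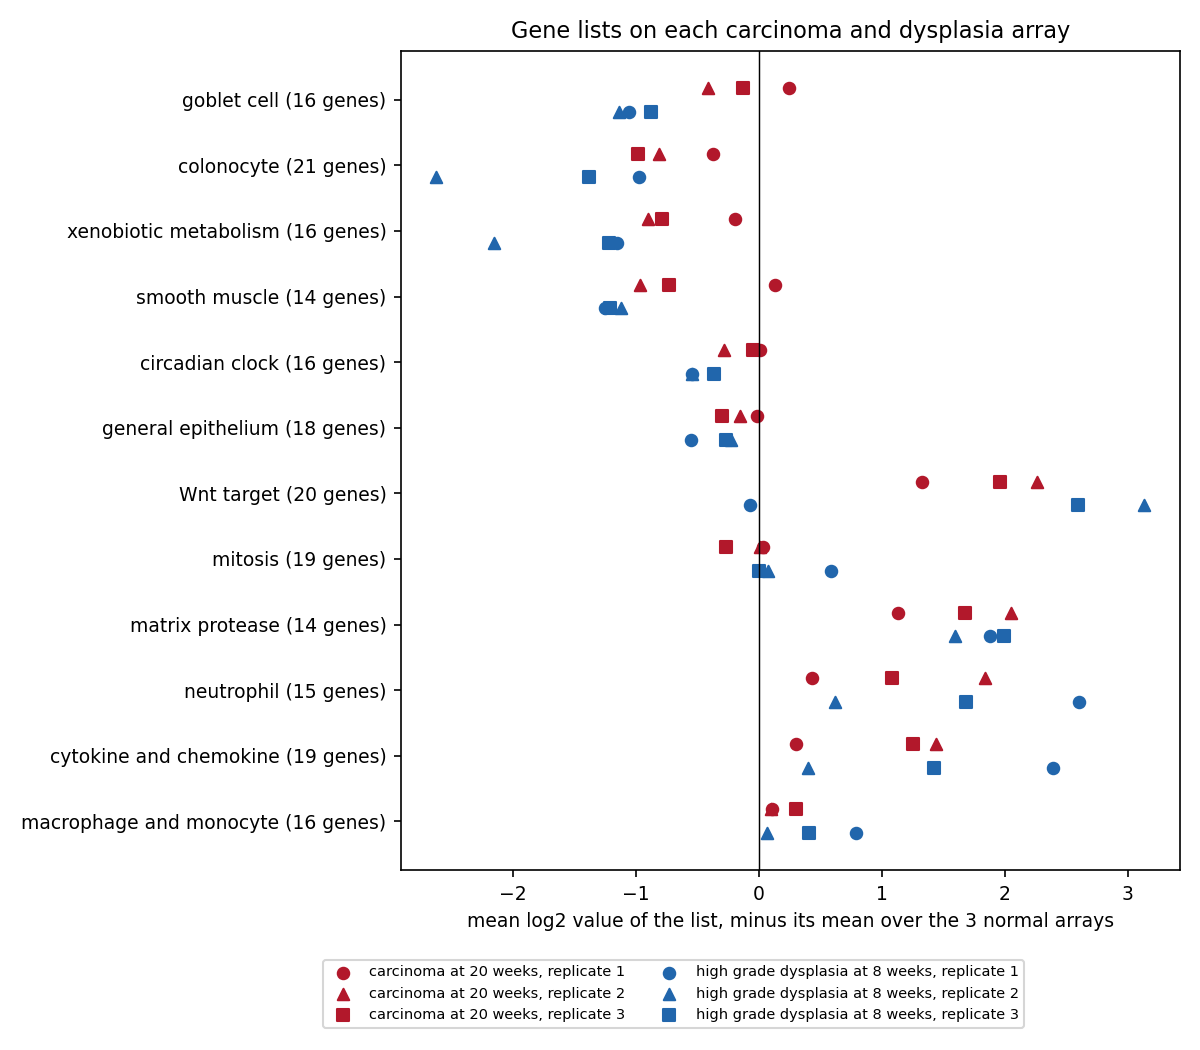
Mean log2 value of each gene list on the carcinoma and HGD arrays, relative to the mean of the same list on the normal arrays (horizontal axis, log2 units), with carcinoma arrays in red above HGD arrays in blue and 1 symbol per replicate. HGD replicate 1 (blue circle) lies at the normal level for Wnt targets and highest for neutrophil genes, and of the 12 lists shown the goblet cell, xenobiotic, smooth muscle and circadian clock lists have all 3 carcinoma arrays above all 3 HGD arrays, with colonocyte genes just short of it (9.53 on the lowest carcinoma array, 9.54 on the highest HGD array).

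No gene passed the test. With limma and Benjamini-Hochberg adjustment over 12877 genes, 0 genes had an adjusted p under 0.05 (0% of genes), the lowest adjusted p was 0.195, shared by 12 genes, and 1422 genes had an unadjusted p under 0.05 (11% of genes), 610 of them higher and 812 lower in carcinoma. When the arrays were weighted by how well each follows its group, 112 genes were called by the same test. Against normal mucosa the same fit called 42 genes higher (0.326%) and 74 lower (0.575%) in carcinoma, and 623 higher (4.84%) and 827 lower (6.42%) in HGD at 8 weeks. These comparisons share arrays with each other, so their values are only set side by side.

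Most differences between carcinoma and HGD at 8 weeks were small. The median absolute log2 difference was 0.15, the central 90% of genes lay between -0.41 and 0.50, and 92.3% lay within 0.5 log2 units of no difference. On average 5433 genes were higher and 7444 lower in carcinoma. At least 2-fold higher in carcinoma were 144 genes, and at least 2-fold lower were 33. At least 4-fold higher were 18 genes, and 1 gene, Chil3, was at least 4-fold lower. These counts depended on single arrays: the count of genes at least 2-fold lower was 17 to 159 and that of genes at least 2-fold higher 134 to 225 as each of the 6 arrays was left out, with the 159 found without HGD replicate 1.

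Array separation, in which all 3 arrays of one group lie beyond all 3 of the other, held for 2101 genes. All 3 carcinoma arrays were above all 3 HGD arrays for 910 genes (7.07% of those tested) and below for 1191 (9.25%). Separation was usually narrow, with a median gap between the nearest arrays of the groups of 0.080 log2 units on the higher side and 0.061 on the lower side. A gap of at least 1 log2 unit was found for 5 genes on the higher side and 2 on the lower side. Large differences and separation went together on the higher side, where 96 of the 144 genes at least 2-fold higher were separated (66.7%). On the lower side 5 of the 33 genes at least 2-fold lower were separated (15.2%), namely Chil3, Fxyd4, Alas2, Rps4l and Psmc3ip.

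**Figure D2:**
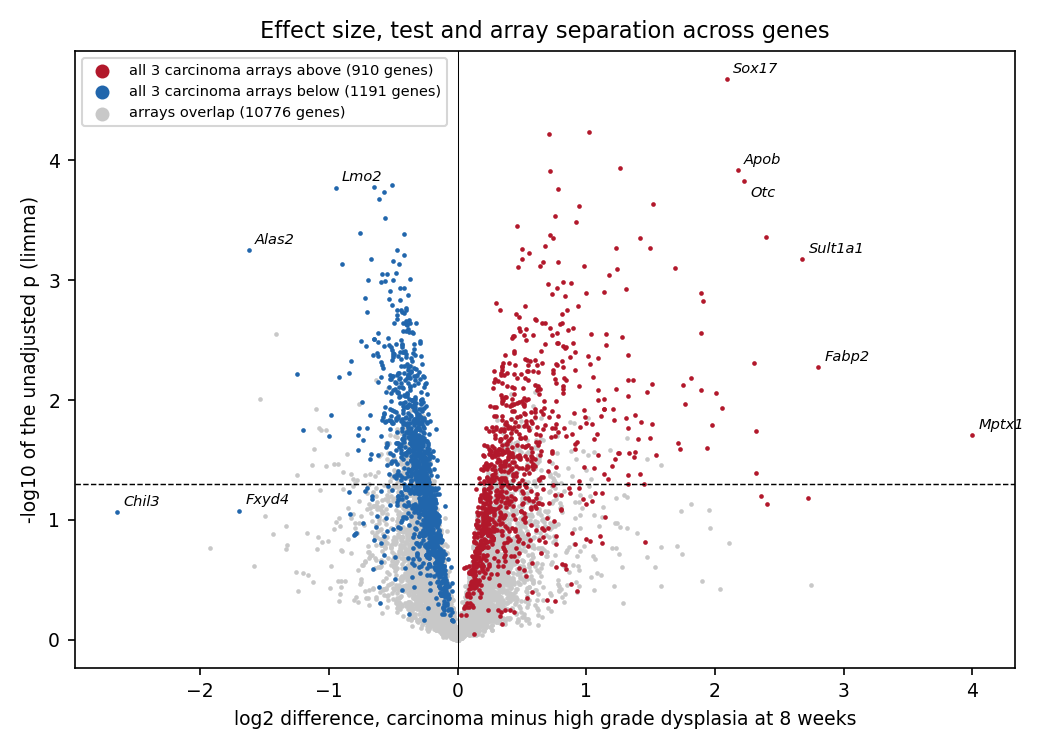
Log2 difference of each of the 12877 genes, carcinoma minus HGD at 8 weeks (horizontal axis), against the negative log10 of its unadjusted p from limma (vertical axis), with genes whose carcinoma arrays lie all above (red), all below (blue) or among (grey) the HGD arrays. The dashed line marks an unadjusted p of 0.05. The right side extends farther than the left and is mostly red beyond 2-fold, while the largest differences on the left include many grey genes.

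The widest separations on the higher side were those of Sult1a1, Otc, Apob, Sult1d1 and Guca2a. Sult1a1, a sulfotransferase that conjugates phenols, had log2 signals of 11.80, 10.10 and 10.27 in carcinoma, against 8.19, 7.495 and 8.45 in HGD, and its gap of 1.64 was the widest of all genes. The log2 difference was 2.68 ± 0.62 (SE, n = 3 per group), which is 6.40-fold, with a limma adjusted p of 0.224. The probe sets of Sult1a1 and Otc carry suffixes that mark possible binding of related transcripts. Otc, the ornithine transcarbamylase of citrulline synthesis, had 8.19, 6.96 and 7.27 in carcinoma, against 5.10, 5.29 and 5.35 in HGD, a difference of 2.22 ± 0.44 with a gap of 1.61 (adjusted p 0.195, limma). Apob, the structural protein of lipoprotein particles, had 7.93, 7.33 and 7.24 in carcinoma, against 5.64, 4.94 and 5.39 in HGD, a difference of 2.18 ± 0.42 with a gap of 1.60 (adjusted p 0.195, limma). None of the 3 was called. They were named for their wide gaps, so the distance between their carcinoma and HGD arrays follows from that choice. With array weights all 3 were called by limma, at adjusted p values of 0.0219 for Sult1a1, 0.00576 for Otc and 0.0207 for Apob. The weights and the gaps come from the same arrays, so these calls are no separate support. In normal mucosa Apob had 5.74, 7.51 and 5.32.

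The remaining places by gap went to Sult1d1, another sulfotransferase, and Guca2a, the precursor of guanylin, a peptide that drives fluid secretion. Sult1d1 had 10.68, 9.44 and 9.52 in carcinoma, against 8.35, 7.21 and 8.40 in HGD (difference 1.89 ± 0.62, gap 1.04). Guca2a had 12.92, 11.95 and 12.06 in carcinoma, against 10.90, 10.92 and 10.74 in HGD (difference 1.46 ± 0.96, gap 1.03). The 3 HGD arrays lay close together for Guca2a, with an SD of 0.096.

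The largest separated differences by size were led by Mptx1, Fabp2 and Slc26a3. Mptx1, a mucosal pentraxin, had 12.59, 9.90 and 13.32 in carcinoma, against 9.20, 6.69 and 7.92 in HGD, a log2 difference of 3.999 ± 1.53. Fabp2, the intestinal fatty acid binding protein, had 11.07, 9.26 and 9.57 in carcinoma, against 8.35, 5.90 and 7.24 in HGD (2.80 ± 0.86). Slc26a3, the chloride and bicarbonate exchanger of the colonocyte surface, had 12.84, 11.87 and 11.79 in carcinoma, against 11.56, 6.53 and 10.24 in HGD (2.72 ± 1.37). In all 3 genes HGD replicate 2 was the lowest of the 6 arrays, and the difference in Slc26a3 was 1.27 to 3.78 as single arrays were left out. The other genes in this group were Gsdmc2, of the pore-forming gasdermin family (2.41 ± 1.25), Pck1, the gluconeogenic enzyme PEPCK (2.39 ± 0.53), Clca1, a secreted goblet cell protein (2.36 ± 1.17), Cyp2c55, a cytochrome P450 (2.32 ± 0.87), Slc5a8, a transporter of short-chain fatty acids (2.32 ± 1.03), and Akr1c14, an aldo-keto reductase (2.31 ± 0.70). Their limma adjusted p values were 0.224 to 0.498. The difference in Slc5a8 was 0.98 without HGD replicate 2, which had 5.90, and up to 2.99 without another array, and that in Akr1c14 was 1.41 to 2.92 as single arrays were left out. Other probe sets of Slc26a3 gave 0.90 to 2.42.

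Promoters are shown for Fabp2 (one of the largest differences), Apob (one of the widest gaps) and Alas2 (the 1 erythroid marker tested, described further on). They are RefSeq sequences of GRCm38.p6, 250 bases before to 50 bases after the start, at chr3:122894822-122895121 (plus strand), chr12:7977427-7977726 (plus strand) and chrX:150547167-150547466 (plus strand). Capitals mark matches, on either strand, to motifs of HNF4 (CAAAGTNCA), CDX (TTTATNG) or GATA factors (AGATAA).
Fabp2: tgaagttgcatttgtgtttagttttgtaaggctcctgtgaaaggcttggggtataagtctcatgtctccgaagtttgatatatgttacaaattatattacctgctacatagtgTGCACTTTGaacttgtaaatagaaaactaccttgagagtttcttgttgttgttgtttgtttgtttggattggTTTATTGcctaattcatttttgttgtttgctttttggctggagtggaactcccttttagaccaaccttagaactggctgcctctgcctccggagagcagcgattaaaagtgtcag
Apob: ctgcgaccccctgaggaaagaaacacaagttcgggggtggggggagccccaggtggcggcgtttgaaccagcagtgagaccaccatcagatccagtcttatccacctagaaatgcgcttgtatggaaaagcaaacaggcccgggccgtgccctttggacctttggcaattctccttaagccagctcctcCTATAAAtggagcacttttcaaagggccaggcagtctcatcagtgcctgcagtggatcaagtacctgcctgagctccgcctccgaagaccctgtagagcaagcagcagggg
Alas2: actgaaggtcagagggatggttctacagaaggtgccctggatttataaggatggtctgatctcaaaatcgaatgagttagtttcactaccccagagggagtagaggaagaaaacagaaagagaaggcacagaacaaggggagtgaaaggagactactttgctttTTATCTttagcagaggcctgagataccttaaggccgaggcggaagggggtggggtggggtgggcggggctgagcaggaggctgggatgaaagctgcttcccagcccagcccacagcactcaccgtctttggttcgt
Fabp2 held an HNF4 match starting 137 bases before the start and a CDX match 65 bases before it. Apob held a CDX match 61 bases before the start, and Alas2 a GATA match 86 bases before it. The promoters of Sult1a1 and Otc held no match to these motifs. Of 32851 promoters in the table, 1.41% hold the HNF4 motif, 10.9% the CDX motif and 11.2% the GATA motif, so a CDX or GATA match alone is common. Of the factors themselves, Hnf4a had 11.96, 11.35 and 11.54 in carcinoma, against 11.44, 11.06 and 11.33 in HGD, and Cdx2 had 8.92, 8.49 and 8.56 in carcinoma, against 8.80, 7.57 and 7.90 in HGD. Both overlapped between the groups.

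**Figure D3:**
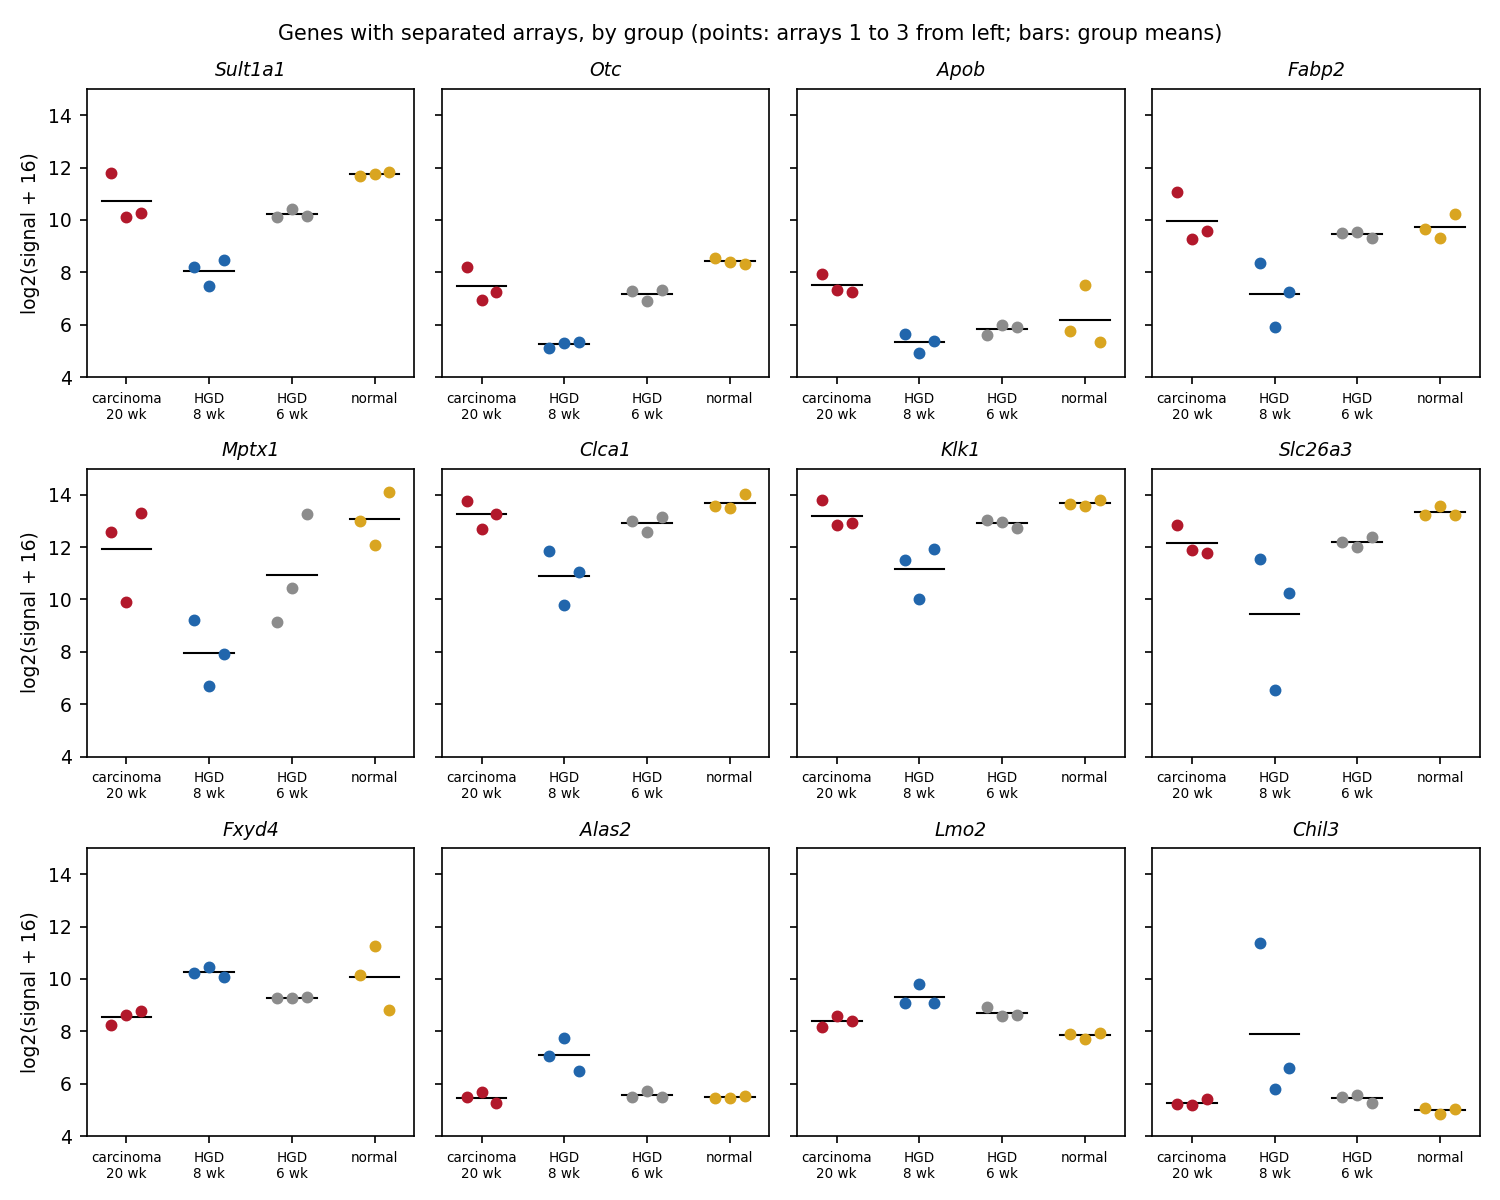
Log2(signal + 16) of 12 separated genes on each array (points) with group means (bars), for carcinoma at 20 weeks, HGD at 8 weeks, HGD at 6 weeks and normal mucosa from left to right in each panel. In the first 8 panels the carcinoma points lie above the HGD points at 8 weeks and near those of HGD at 6 weeks, except Apob, whose carcinoma points lie above both; in the last 4 panels they lie below the HGD points at 8 weeks.

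Carcinoma differed less from HGD at 6 weeks than from HGD at 8 weeks in the 4 genes below. The HGD at 6 weeks had gone longer without DSS, had fewer DSS cycles and came from younger mice than that at 8 weeks. The parts of these cannot be told apart. The 4 genes were chosen for their large difference or wide gap between carcinoma and HGD at 8 weeks. That choice by itself favours a smaller difference from HGD at 6 weeks and low values in HGD at 8 weeks, so neither can be read as a result about other genes. Sult1a1 averaged 10.72 ± 0.93 in carcinoma and 10.23 ± 0.18 in HGD at 6 weeks (SD, n = 3 each). Fabp2 averaged 9.97 ± 0.97 in carcinoma and 9.46 ± 0.13 in HGD at 6 weeks, and Otc 7.47 ± 0.64 in carcinoma and 7.18 ± 0.23 in HGD at 6 weeks. Apob had the largest difference from HGD at 6 weeks of the 4, with 7.501 ± 0.38 in carcinoma and 5.83 ± 0.21 in HGD at 6 weeks, a difference of 1.67 ± 0.42 (SE). Carcinoma minus HGD at 6 weeks gave 0 calls by limma over all genes, with 580 genes at an unadjusted p under 0.05. Against normal mucosa, Otc was called lower in HGD at 8 weeks, with a log2 difference of -3.17 ± 0.44 (limma adjusted p 0.00228), and had -0.95 in carcinoma (adjusted p 0.266). Sult1a1 likewise was called lower in HGD at 8 weeks than in normal mucosa (-3.70, adjusted p 0.00553) and had -1.03 in carcinoma (adjusted p 0.398, limma).

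Among lists of at least 10 tested genes, goblet cell genes had the highest share of members separated above. Of 16 genes, all tested, 15 were higher in carcinoma on average and 10 had all 3 carcinoma arrays above, against 7.07% of all genes, with 0 below; the list median was 0.79 against -0.04 for all genes, and 0 members were called. Klk1, a kallikrein protease, had 13.81, 12.86 and 12.93 in carcinoma, against 11.50, 10.03 and 11.92 in HGD (2.05 ± 0.71, gap 0.94), although other probe sets of this gene gave -0.08 to 2.02. Clca1 had 13.77, 12.70 and 13.27 in carcinoma, against 11.83, 9.81 and 11.03 in HGD (gap 0.87). Fcgbp, a mucus component that binds immunoglobulin, had 13.26, 12.93 and 13.13 in carcinoma, against 11.79, 12.35 and 11.86 in HGD. Muc2, the main mucin of the colon, had 13.94, 13.18 and 13.45 in carcinoma, against 12.33, 12.55 and 13.03 in HGD, a difference of 0.88 ± 0.90 with a narrow gap of 0.15. Atoh1 and Creb3l1, transcription factors of the secretory lineage, were also separated, at 0.99 ± 0.35 and 0.92 ± 0.36. Retnlb, an antibacterial goblet cell peptide, overlapped, with 14.16, 13.46 and 14.33 in carcinoma, against 13.96, 12.50 and 9.79 in HGD. The list median stayed at 0.57 to 0.97 as single arrays were left out. Against normal mucosa it was -0.10 in carcinoma, with 0 members called lower (0.575% of all genes were). In HGD at 8 weeks it was -0.78, with 3 called lower (6.42% of all genes were).

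Absorptive colonocyte genes were higher in carcinoma on average in 20 of 21 tested members, 1 more having failed the filter on low signal. Separation above was found for 6 members (7.07% of all genes) and below for 0 (9.25% of all genes), and the median was 0.58. The range over HGD arrays was wide: Car4, a surface carbonic anhydrase, had 10.81, 11.67 and 11.04 in carcinoma, against 11.86, 5.53 and 9.81 in HGD, a difference of 2.11 ± 1.41, and HGD replicate 1 lay above all 3 carcinoma arrays. Aqp8, a water channel, had 10.02, 10.02 and 8.95 in carcinoma, against 10.30, 5.57 and 8.69 in HGD. Slc26a2, a sulphate transporter, was separated, with 12.09, 11.28 and 11.10 in carcinoma, against 10.38, 8.35 and 10.49 in HGD (1.75 ± 0.56). Without HGD replicate 2 the list median was 0.24, the lowest value on leaving out single arrays, and without HGD replicate 1 it was 1.03, the highest. Against normal mucosa the median was -0.72 in carcinoma, with 2 members called lower, against 0.575% of all genes. In HGD at 8 weeks it was -1.63, with 5 called lower, against 6.42% of all genes.

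Enzymes and transporters of xenobiotic metabolism had 8 of 16 tested members above, against 7.07% of all genes, and 0 below. The median of 0.67 was 0.40 to 0.97 as single arrays were left out. Of the 20 listed, 3 failed the filter and 1 had no usable probe set. Besides Sult1a1 and Cyp2c55, these were Cyp3a13 (1.81 ± 0.57) and Cyp2c65 (0.91 ± 0.28), both cytochromes P450, the efflux pump Abcb1a (1.41 ± 0.63), the glucuronosyltransferase Ugt2b34 (0.91 ± 0.61), Cyp2d26 (0.73 ± 0.27) and the glutathione transferase Gstm1 (0.71 ± 0.30). Abcb1a had 10.81, 9.82 and 9.91 in carcinoma, against 9.27, 7.72 and 9.32 in HGD. The list median was -0.71 in carcinoma against normal mucosa, with 1 member called lower, against 0.575% of all genes. In HGD at 8 weeks it was -1.56, with 8 called lower, against 6.42% of all genes.

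Of 17 tested genes of fatty acid oxidation, 4 were separated above, against 7.07% of all genes, and 0 below. The median of 0.15 was 0.083 to 0.23 as single arrays were left out. Ehhadh, a peroxisomal oxidation enzyme, had 8.14, 7.69 and 7.93 in carcinoma, against 6.91, 6.96 and 7.39 in HGD (0.84 ± 0.24). Hadhb, Acaa2 and Hadh, mitochondrial enzymes of the same route, differed by 0.36, 0.37 and 0.30. Of 15 tested genes of sterol synthesis and its control, 4 were above, against the same 7.07%, and 1 was below (9.25% of all genes were). Insig1, which holds back sterol synthesis, differed by 0.62 ± 0.19, and Hmgcs1, an enzyme at the start of the route, by 0.48 ± 0.18.

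Enteroendocrine genes were split. Chga and Chgb, granule proteins of these cells, had differences of 1.12 ± 0.55 and 1.58 ± 0.68. Only Chga was separated, the 1 member of 13 tested, close to the 7.07% of all genes. Insl5, an insulin-like peptide of the distal colon, had 10.73, 9.93 and 10.41 in carcinoma, against 10.90, 5.42 and 9.52 in HGD, and Gcg, the precursor of glucagon-like peptides, had 9.34, 8.53 and 9.23 in carcinoma, against 9.62, 4.72 and 8.03 in HGD. Both were low on HGD replicate 2 and above all 3 carcinoma arrays on HGD replicate 1. General epithelial genes had a median of 0.19 over 18 genes, 2 above (7.07% of all genes were) and 1 below (9.25% of all genes were).

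**Figure D4:**
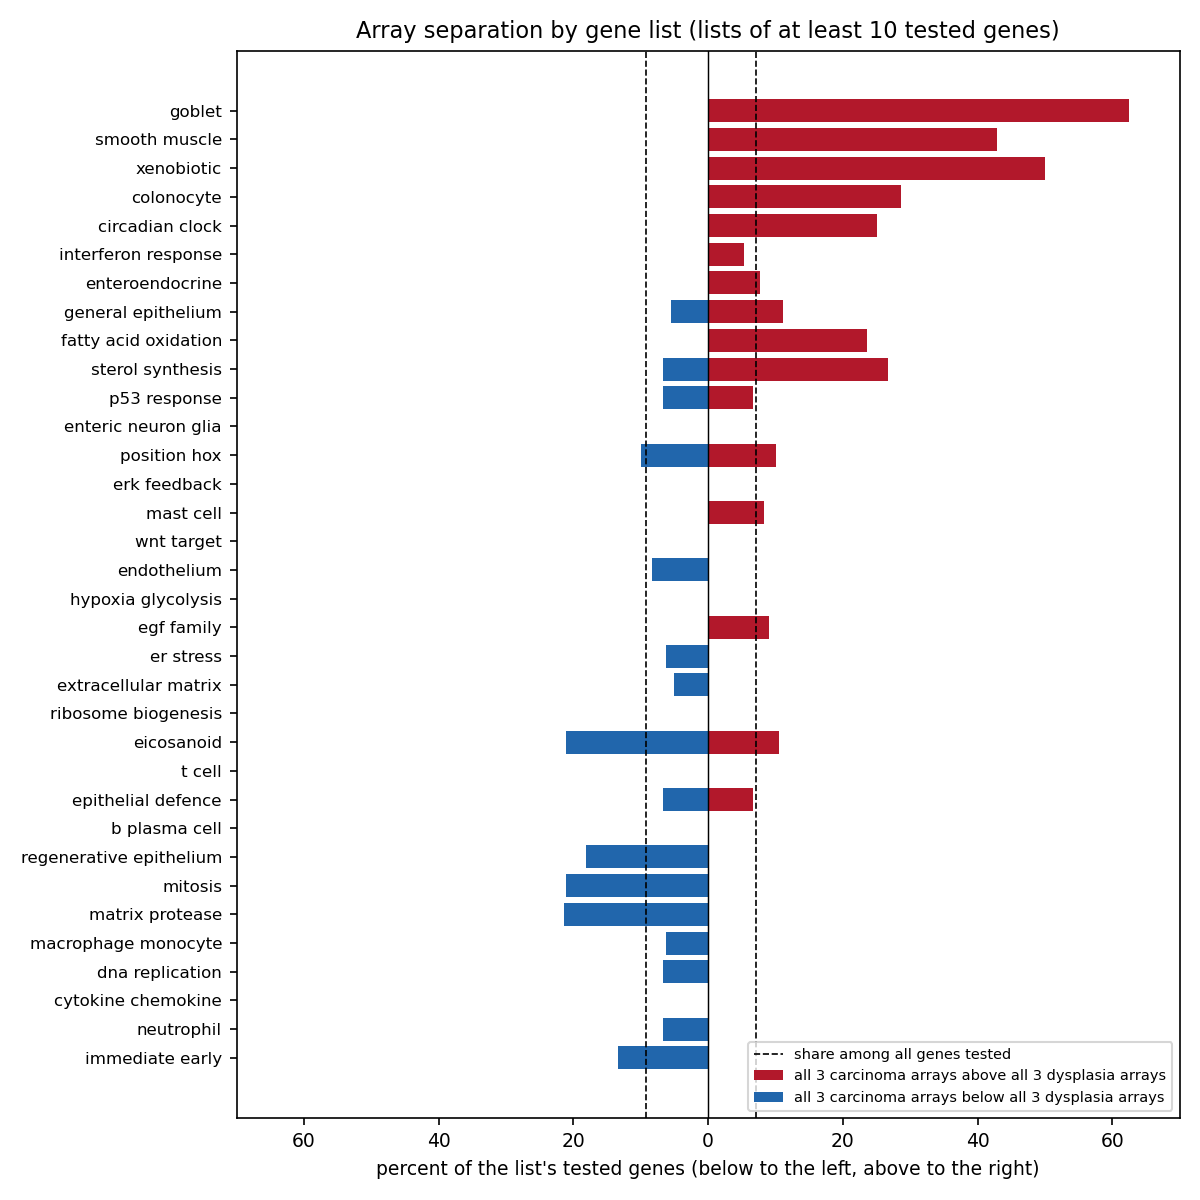
Percent of each list's tested genes with all 3 carcinoma arrays above (red, to the right) or below (blue, to the left) all 3 HGD arrays at 8 weeks, for lists of at least 10 tested genes ordered by median difference, with dashed lines at the shares among all genes (7.07% above, 9.25% below). Goblet, xenobiotic and smooth muscle genes have the longest red bars, and matrix protease, mitosis and eicosanoid genes the longest blue ones.

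Smooth muscle and circadian clock genes lay higher in carcinoma on the same arrays. All 14 smooth muscle genes were higher in carcinoma on average, 6 of them separated above, against 7.07% of all genes, and 0 below, with a median of 0.68. The mean of the list was 11.40, 10.30 and 10.53 on the carcinoma arrays, against 10.02, 10.15 and 10.05 on the HGD arrays. Carcinoma replicate 1 was highest, and without it the list median was 0.34. Synm, an intermediate filament protein of muscle, differed by 1.15 ± 0.64, and Myh11, smooth muscle myosin, had 12.07, 10.83 and 11.23 in carcinoma, against 10.69, 10.45 and 10.69 in HGD. The defining markers Acta2 and Des were high on all 6 arrays and overlapped, Acta2 at 12.84 to 13.45 in carcinoma and 12.69 to 12.92 in HGD. The part of muscle content in the epithelial differences was not tested.

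Circadian clock genes had 4 of 16 members above, against 7.07% of all genes, and 0 below. On average 12 were higher and 4 lower, with a median of 0.45 that stayed at 0.31 to 0.70 as single arrays were left out. Dbp, an output factor of the clock, had 9.78, 8.39 and 9.72 in carcinoma, against 7.95, 7.60 and 8.37 in HGD (1.32 ± 0.42, with a gap of 0.02). Per1, a core repressor of the clock, had 8.90, 8.29 and 8.72 in carcinoma, against 7.95, 7.68 and 7.97 in HGD (0.77 ± 0.21). Nr1d1 and Ciart, further repressors of the clock, differed by 0.89 ± 0.34 and 0.72 ± 0.16. Arntl, the activator that runs in the opposite phase, had 6.54, 6.90 and 6.44 in carcinoma, against 6.93, 6.62 and 6.68 in HGD. The labels used here give no hour of collection, so its part was not tested.

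Sox17 had the lowest unadjusted p of all genes in this comparison, and it is named here after its values were seen. This HMG-box transcription factor of endoderm had 8.90, 10.53 and 9.92 in carcinoma, against 7.09, 8.08 and 7.91 in HGD, a difference of 2.09 ± 0.34 (4.27-fold, gap 0.83). The limma adjusted p was 0.195, and 0.0075 without carcinoma replicate 1. Irx4, a homeobox transcription factor also seen in this way, had 6.36, 7.58 and 6.91 in carcinoma, against 5.40, 5.65 and 6.02 in HGD. Its limma adjusted p was 0.195, against 0.0316 without carcinoma replicate 1. Both genes were lowest in carcinoma on that replicate. The refit without it kept carcinoma replicates 2 and 3, the carcinoma arrays with the prostate transcripts described further on. Neither gene was called without carcinoma replicate 2 and HGD replicate 2. Sox17 and Irx4 were called higher in carcinoma than in normal mucosa by limma, at 2.88 ± 0.34 (adjusted p 0.00228) and 1.60 ± 0.24 (adjusted p 0.0112), while the values of HGD at 8 weeks against normal were 0.79 (adjusted p 0.132) and 0.34 (adjusted p 0.365). Both genes were picked on values of the same carcinoma arrays, so neither these calls nor those of the refits are separate support for them. The Sox17 probe set may bind related transcripts, and its other probe set gave a carcinoma minus HGD difference of 1.09.

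Lower in carcinoma, the 3 features that passed the test were probe sets for globins, the oxygen carriers of red blood cells. Each of these probe sets maps to several near-identical genes, so none can be given to a single gene, and they were tested apart from the genes. Of 3381 probe sets that name no single gene, 3 were called, and all 3 were globin. A probe set shared by beta-globin genes had 10.11, 11.18 and 10.44 in carcinoma, against 13.51, 13.53 and 13.23 in HGD. It fell by 2.85 ± 0.40 on the log2 scale (7.19-fold lower, limma adjusted p 0.00621), and the nearest arrays were more than 2 log2 units apart. One probe set shared by alpha-globin genes had 11.15, 11.36 and 10.57 in carcinoma, against 13.99, 14.02 and 13.78 in HGD, and fell by 2.90 ± 0.41 (7.48-fold lower, adjusted p 0.00621). Another had 10.74, 11.94 and 11.22 in carcinoma, against 13.83, 13.98 and 13.64 in HGD, and fell by 2.51 ± 0.38 (5.72-fold lower, adjusted p 0.0109). A further alpha-globin probe set was not called, at -3.63 ± 0.96 (adjusted p 0.283). The 1 globin gene in the test of genes, Hbb-b2, a beta-globin chain named here after its values were seen, has a dim probe set with 6.52, 6.47 and 6.30 in carcinoma, against 7.05, 6.94 and 6.99 in HGD. Its difference of -0.56 ± 0.14 was far smaller than those above and was not called (limma adjusted p 0.237). Without carcinoma replicate 1 or carcinoma replicate 3, 0 of these probe sets were called by limma.

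In HGD at 8 weeks the beta-globin probe set was also higher than in normal mucosa, by 2.42 ± 0.40 (adjusted p 0.00381, limma), and averaged 11.002 ± 0.19 in normal mucosa, 10.88 ± 0.50 in HGD at 6 weeks and 12.96 ± 0.68 in inflamed mucosa of day 14 (SD, n = 3 each). Alas2, the enzyme that starts heme synthesis in red cell precursors and reticulocytes, had 5.49, 5.67 and 5.26 in carcinoma, against 7.06, 7.74 and 6.49 in HGD. Its difference of -1.62 ± 0.37 was not called (limma adjusted p 0.224), with a gap of 0.82. It was the 1 erythroid marker of 7 that could be tested, as 2 failed the filter on low signal and 4 had no probe set of their own. Against normal mucosa Alas2 was called higher in HGD at 8 weeks (1.62 ± 0.37, adjusted p 0.0176) and averaged 5.47 in both carcinoma and normal mucosa.

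**Figure D5:**
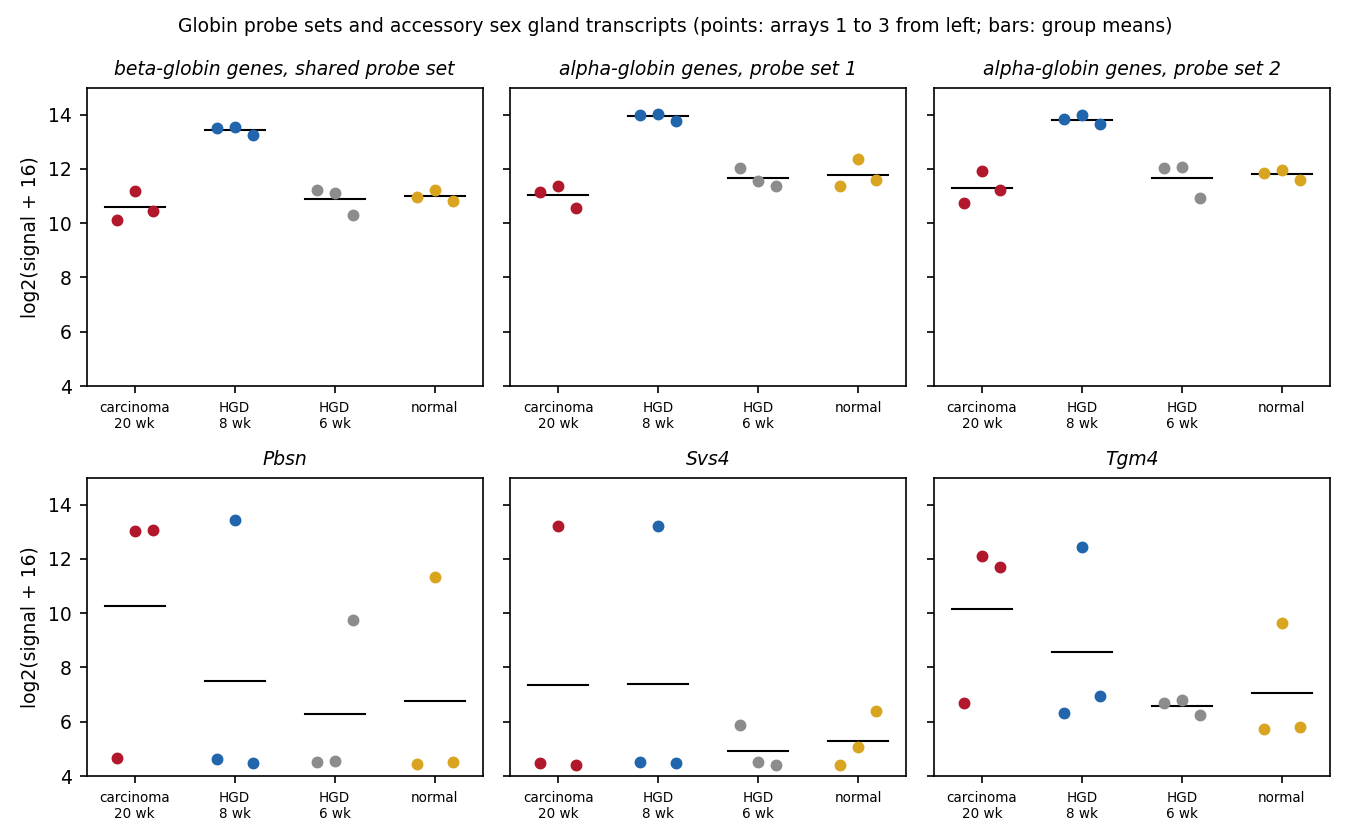
Log2(signal + 16) on each array (points) with group means (bars) for 3 globin probe sets and for 3 transcripts of accessory sex glands, for carcinoma at 20 weeks, HGD at 8 weeks, HGD at 6 weeks and normal mucosa from left to right. The globin points of HGD at 8 weeks stand above all others, while Pbsn, Svs4 and Tgm4 are near the top of the scale on single arrays of either group.

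Among genes, the widest gap on the lower side was that of Fxyd4, a regulator of the sodium pump in colon and kidney. It had 8.26, 8.64 and 8.77 in carcinoma, against 10.22, 10.45 and 10.08 in HGD, a difference of -1.70 ± 0.91 with a gap of 1.31 (limma adjusted p 0.511). It also varied in normal mucosa, at 10.07 ± 1.23 (SD, n = 3). Rps4l, a relative of the ribosomal protein gene Rps4x, had 5.17, 5.12 and 4.99 in carcinoma, against 6.40, 6.28 and 6.36 in HGD (-1.25 ± 0.39, gap 1.11), and stood at 7.23 ± 0.59 in normal mucosa. Lmo2, a LIM-domain regulator of blood and endothelial genes, had 8.16, 8.58 and 8.39 in carcinoma, against 9.07, 9.82 and 9.08 in HGD (-0.95 ± 0.19, adjusted p 0.195). Rbm14, an RNA-binding coactivator, had 8.78, 8.80 and 8.84 in carcinoma, against 9.49, 9.54 and 9.32 in HGD (-0.65 ± 0.13, adjusted p 0.195, limma), with a carcinoma SD of 0.028.

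Chil3, a chitinase-like protein of activated macrophages and neutrophils, had the largest separated difference on the lower side, but 1 array set its size. It had 5.22, 5.20 and 5.40 in carcinoma, against 11.37, 5.78 and 6.59 in HGD, and its difference of -2.64 ± 1.43 was -3.71 to -0.91 as single arrays were left out. The other genes named by size were Psmc3ip, a recombination cofactor (-1.20 ± 0.45), Btg2, an antiproliferative gene (-0.995 ± 0.38), Hspa13, of the Hsp70 family (-0.99 ± 0.35), Bhlhb9 (-0.92 ± 0.29), Pea15a, a death-effector protein that binds ERK (-0.90 ± 0.21), Sting1, the adaptor of DNA sensing (-0.85 ± 0.26), and Ccn1, a matrix protein induced by injury and mechanical stress (-0.84 ± 0.41). The difference in Hspa13 rests on 1 array and 1 probe set: it had 7.15, 8.91 and 8.91 in carcinoma, against 9.49, 9.37 and 9.07 in HGD, was -0.40 without carcinoma replicate 1, and its other 3 probe sets gave -0.20 to -0.05. The other probe set of Btg2 gave -0.35 and that of Pea15a -0.44. Ccn1 had 7.04, 7.35 and 7.79 in carcinoma, against 8.28, 8.25 and 8.17 in HGD, and its other 3 probe sets gave -1.17 to -0.66. Pea15a and Sting1 were both called higher in HGD at 8 weeks than in normal mucosa, at 1.35 (limma adjusted p 0.00425) and 1.72 (adjusted p 0.00367), and had 0.45 and 0.87 in carcinoma without a call.

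Most neutrophil, cytokine and macrophage genes were lower in carcinoma on average but overlapped, while 14 of 19 interferon-response genes were higher on average. Of all 12877 genes tested, 7444 were lower and 5433 higher on average. Of 15 tested neutrophil genes, 11 were lower on average and 1, Camp, an antimicrobial peptide of granules, was separated below (9.25% of all genes were), with 0 calls and a list median of -0.33, which was -0.62 to -0.15 as single arrays were left out. S100a8, a subunit of calprotectin, had 8.38, 12.00 and 11.08 in carcinoma, against 13.62, 9.61 and 12.96 in HGD. Ngp, a neutrophil granule protein, had 5.94, 6.02 and 5.58 in carcinoma, against 10.35, 6.00 and 6.98 in HGD. Of 19 cytokine and chemokine genes, 17 were lower on average and 0 were separated (7.07% of all genes were above and 9.25% below). Their median of -0.30 turned to 0.16 without HGD replicate 1. Il6 had 4.64, 5.33 and 5.54 in carcinoma, against 9.17, 4.66 and 5.65 in HGD, and Ccl2, which draws monocytes, had 6.71, 6.84 and 7.26 in carcinoma, against 9.54, 6.997 and 7.67 in HGD. HGD replicate 1 was the highest array in each of these 4 genes, and HGD replicate 2 lay inside the carcinoma range. Of 16 macrophage and monocyte genes, 14 were lower on average and 1, the Fc receptor gene Fcgr1, was separated below (9.25% of all genes were). Their median of -0.27 was -0.09 without HGD replicate 1. Interferon-response genes had a median of 0.27, which turned to -0.16 without HGD replicate 2, with 1 of 19 above (7.07% of all genes were). The 5 members lower on average included the chemokine genes Cxcl10 (-1.08 ± 0.69), Cxcl11 (-1.06 ± 0.40) and Cxcl9 (-0.80 ± 1.07). Cxcl11 had the smallest unadjusted p of the list (limma, 0.0176), overlapped between the groups and was not called. MHC class II genes overlapped in all 8 members.

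Matrix proteases and prostaglandin genes held a few separated members. Of 14 proteases and inhibitors tested, 3 were below, against 9.25% of all genes, and 0 above, and the median of -0.26 turned to 0.11 without carcinoma replicate 1. The 3 were Adamts4, an aggrecanase (-0.80 ± 0.50), Timp1, the metalloprotease inhibitor (-0.79 ± 0.49), and Mmp2, a gelatinase (-0.41 ± 0.34). Mmp7, a protease of Wnt-active epithelium, had 10.04, 10.68 and 10.68 in carcinoma, against 6.64, 12.08 and 11.89 in HGD. Of 19 eicosanoid genes, Hpgd, which degrades prostaglandins, and Ptger3, a receptor for prostaglandin E2, were above, against 7.07% of all genes. Hpgd had 10.98, 9.78 and 9.97 in carcinoma, against 8.56, 9.45 and 8.75 in HGD (1.32 ± 0.44), and Ptger3 had 6.70, 6.08 and 6.79 in carcinoma, against 5.83, 5.06 and 5.57 in HGD (1.04 ± 0.29). The 4 members below, against 9.25% of all genes, were Ptger2, Tbxas1, Ptges2 and Ptger1, at -0.47 to -0.13. Ptges2 and Ptger1 were barely separated. The nearest arrays of Ptges2 had 7.356 in carcinoma and 7.357 in HGD, and those of Ptger1 6.03 and 6.04. Ptgs2, the inducible cyclooxygenase, had 6.46, 7.81 and 8.08 in carcinoma, against 9.26, 5.32 and 7.38 in HGD (0.13 ± 1.02).

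Cell division genes were slightly lower in carcinoma on average in all 19 mitosis and all 15 DNA replication members tested, with medians of -0.25 and -0.28 and 0 calls. Separation below was found for 4 of the 19 mitosis genes, Top2a, Aurka, Bub1 and Bub1b, against 9.25% of all genes. Of the 15 replication genes it was found for 1, Rrm1, which is under that share. Aurka, a mitotic kinase, had 7.09, 7.21 and 6.80 in carcinoma, against 8.15, 7.36 and 7.29 in HGD (-0.57 ± 0.21). Rrm1, a ribonucleotide reductase subunit, had 8.79, 8.996 and 8.76 in carcinoma, against 9.44, 9.28 and 9.02 in HGD (-0.40 ± 0.14), with -0.23 on its other probe set. HGD replicate 1 was the highest array for both, and the mitosis median was -0.12 without it. Mki67, a marker of dividing cells, had 10.25, 9.95 and 9.88 in carcinoma, against 10.59, 9.74 and 9.83 in HGD (-0.03 ± 0.19). Of 15 immediate early genes, 12 were lower on average, against 7444 of all 12877 genes. Atf3 and Maff, stress-induced factors, were separated below, against 9.25% of all genes. Atf3 had 7.47, 7.56 and 8.08 in carcinoma, against 8.64, 8.42 and 8.29 in HGD (-0.74 ± 0.25).

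Wnt targets did not separate in any of 20 tested genes (7.07% of all genes were above and 9.25% below), and the list median was -0.05. Axin2, a feedback inhibitor and standard readout of Wnt signalling, had 9.18, 10.17 and 9.63 in carcinoma, against 7.45, 11.12 and 10.36 in HGD, a difference of 0.02 ± 0.70. Lgr5, a stem cell receptor, had 7.07, 8.01 and 7.80 in carcinoma, against 5.55, 10.16 and 9.30 in HGD. Apcdd1, a Wnt inhibitor, had 8.75, 10.28 and 10.39 in carcinoma, against 6.53, 12.14 and 11.44 in HGD. In all 3 the carcinoma arrays lay between HGD replicate 1 and the other HGD arrays. The direction of the list therefore depended on which HGD array was left out, with a median of -1.05 without replicate 1 and 0.65 without replicate 2. Myc, a growth regulator and Wnt target, had 7.74, 8.67 and 8.04 in carcinoma, against 8.10, 8.32 and 8.23 in HGD (-0.07 ± 0.19). Metallothioneins, which bind zinc and copper, followed the same order by array, with list means of 10.60, 11.14 and 11.29 in carcinoma, against 8.94, 12.23 and 11.95 in HGD.

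With HGD replicate 1 left out, limma called 2 genes, both lower in carcinoma, and they are named after their values were seen. Sox11, a transcription factor of embryonic tissues, had 4.62, 4.80 and 5.17 in carcinoma, against 4.68, 7.38 and 7.14 in HGD, and without replicate 1 its difference was -2.39 (adjusted p 0.0153). Dnajc6, the cochaperone auxilin, had 6.11, 6.81 and 7.13 in carcinoma, against 6.89, 8.95 and 8.44 in HGD, and differed by -2.01 without replicate 1 (adjusted p 0.0215). With all 6 arrays, the limma adjusted p was 0.351 for Sox11 and 0.290 for Dnajc6. Shh, the hedgehog ligand, showed the same order without a call, at 6.82, 7.65 and 6.28 in carcinoma, against 5.57, 10.76 and 8.70 in HGD.

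Transcripts of the male accessory sex glands were present on some arrays of both groups. Pbsn, probasin of the prostate, had 4.66, 13.02 and 13.08 in carcinoma, against 4.62, 13.42 and 4.47 in HGD. Svs4, a seminal vesicle secretory protein, had 4.48, 13.22 and 4.41 in carcinoma, against 4.51, 13.22 and 4.48 in HGD. Tgm4, the prostate transglutaminase, had 6.69, 12.11 and 11.70 in carcinoma, against 6.34, 12.45 and 6.96 in HGD. Pbsn was also high on 1 normal array (11.34) and 1 array of HGD at 6 weeks (9.74). The genes were picked after their values were seen. Leaving out carcinoma replicate 2 and HGD replicate 2 gave 1 gene called by limma, Azgp1, a secreted zinc-binding glycoprotein, at 1.04 (adjusted p 0.0115). Leaving out carcinoma replicate 3 as well gave 2, Commd9 at -1.98 and Hspa13 at -2.12 (adjusted p 0.000798 and 0.0455), with carcinoma replicate 1 as the lone carcinoma array, assumed to vary like the other groups. Both calls rest on 1 probe set each, since the other probe sets gave -0.14 to -0.06 for Commd9 and -0.20 to -0.05 for Hspa13 over all 6 arrays. Their part in the other results was not tested beyond these refits. Under the same pair of refits the goblet median was 0.99 and 1.25, and the smooth muscle median 0.95 and 1.30. The second value of each list rests on carcinoma replicate 1, which had the highest mean of the 6 arrays on both lists (11.91 and 11.40). In that refit other genes turned sign, with Car4 at -0.021 and Jchain at -0.076.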

How the data were processed

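RNA was measured on Affymetrix mouse whole-genome arrays, 18 arrays in 6 groups of 3. The deposited values are intensity signals per probe set on a linear scale; MAS5 is named per the submitters' processing notes. How it was set, and in which version, is not given in the sources used here. The deposited signals were taken to log2 after adding 16. Of 45101 probe sets, 64 controls were left out, 34945 name 1 gene, 932 several and 9160 none in GEO's platform annotation. Probe sets had to exceed the table median of 56.6 on at least 3 of the 18 arrays (25034 passed), and the brightest probe set stood for a gene. Of the named probe sets 34741 matched the gene table. The 6 group means were fitted with limma 3.58.1 in R 4.3.3 (lmFit, eBayes with an intensity trend), with Benjamini-Hochberg adjustment over 12877 genes and a threshold of 0.05. The procedure was tested on simulated data. The p-values measure the spread between these arrays, and 3 arrays per group limit the precision. Groups were taken from sample titles.

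The genes named were the 12 largest separated differences in each direction, called ones first, the member with the smallest p in each list where none was called, the 5 widest gaps in each direction, and Axin2, Ptgs2, Myc, Car4, Muc2 and Mki67, passing over predicted genes among the largest. Other list members named were chosen after their values were seen. The arrays compared and the gene lists were chosen with earlier results of these data known. Alternatives changed the offset, the filter, the probe set rule, the normalization, the arrays fitted, the variance model, array weights and a replicate block, and left out single arrays.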

Additional observations from a re-analysis of the deposited data

Results flagged for a closer look

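Globin probe sets that map to several genes lay outside the test of genes and were lower in carcinoma than in HGD at 8 weeks, by log2 differences of -2.85 for a beta-globin probe set and -2.90 and -2.51 for alpha-globin probe sets. Their part in the other differences was not tested.

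Seminal vesicle transcripts that did not pass the filter on low signal were high on 1 carcinoma array and 1 HGD array, and near the level of no signal on the others. Svs6 reached 11.8 and Svs2 reached 12.7, both on carcinoma replicate 2. Sva reached 12.9 and Pate4 reached 12.0 on the same array. HGD replicate 2 was the other high array for all 4 transcripts.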

How the results depend on the processing

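Over all alternatives, the differences of named genes kept their direction and side of the threshold in 1633 comparisons with the values reported, crossed it in 27 and turned sign in 25. The cause was not tested where a value changed. With log2(signal + 64), 94 genes were at least 2-fold higher and 18 lower, Axin2 was at -0.043 and Ptgs2 at -0.025. With only the 6 arrays, 925 genes had an unadjusted p under 0.05. With array weights, 112 genes and 5 probe sets that name no single gene were called, 2322 genes had an unadjusted p under 0.05, 81 genes were at least 2-fold higher and 53 lower, Axin2 was at -0.56 and Mki67 at 0.10. Leaving out single arrays gave 0 to 2 called genes, 747 to 2063 genes at an unadjusted p under 0.05 (747 without carcinoma replicate 1), 134 to 225 genes at least 2-fold higher (225 without HGD replicate 3), 17 to 159 lower (17 without carcinoma replicate 1, 105 without HGD replicate 2, 59 and 65 without carcinoma replicates 2 and 3), and 0 to 3 called probe sets that name no single gene. Over the same refits Axin2 ran from -1.08 to 0.75, Mki67 from -0.18 to 0.24, Bambi from -0.998 to 0.059, Ptgs2 from -0.87 to 1.10, Sox9 from -0.63 to 0.14, Commd9 from -0.91 to 0.081, Myc from -0.33 to 0.14 and Plin4 from -0.035 to 0.55. Leaving out the arrays with accessory gland transcripts was chosen after seeing the data. Without the 2 arrays with seminal vesicle transcripts, 1 gene and 0 probe sets that name no single gene were called, 143 genes were at least 2-fold lower, Ptgs2 was at -1.05 and Sox9 at 0.12. Without the 3 arrays with probasin signal, 2 genes were called, 320 were at least 2-fold higher and 364 lower, Car4 was at -0.021, Jchain at -0.076, Mki67 at 0.042, Mt2 at 0.029, Ptgs2 at -1.86 and Sox9 at 0.082.

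With the replicate block, 0 genes and 1 probe set that names no single gene were called. In the labels, carcinoma and HGD arrays of the same number share only that number. Their deviations from the group means correlated at 0.07, 0.24 and 0.19. Each carcinoma array correlated best with the HGD array of its own number, and so did HGD replicates 2 and 3 with theirs in carcinoma. HGD replicate 1 correlated better with carcinoma replicate 3, at 0.13. Signals near the level of no signal carry no order, and their differences are understated.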
